A study of Mus musculus with 18 samples.

Results

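The cytosolic ribosomal protein genes encode the proteins of the small and large subunits of the ribosome that translates nuclear mRNAs. They were taken here as the protein-coding genes whose symbol starts with Rpl or Rps and a digit, together with Rplp0, Rplp1, Rplp2 and Rpsa. Ribosomal S6 kinases and Rpl35a were left out. Of 92 such symbols, 82 had at least 10 counts in every library, among 12665 genes that reached this minimum and 78239 that were listed. The 82 genes comprised 44 of the large subunit, 29 of the small subunit, and 9 copies or look-alikes, which are retrotransposed copies, paralogs that carry a related name, or, for Rps19bp1, a protein that binds Rps19.

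Kidney RNA was sequenced from outbred CD-1 wild-type mice aged 6 wk whose dams ate a low-protein (LP, 8% protein) or normal-protein (NP, 18% protein) diet through gestation and lactation. With 1 library per mouse, there were 5 males and 5 females of LP dams, and 5 males and 3 females of NP dams. All mice changed to the NP diet at weaning at 3 wk, and all received cationic ferritin in 2 injections. Males were collected 90 min and females 24 h after the last injection, so sex and collection time cannot be told apart. RNA came from a piece of the left kidney, and the litter of each mouse is not given in the labels. Mice of 1 litter would share a dam, so p-values measure only the spread between these samples.

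Ribosomal proteins assemble with ribosomal RNA in the nucleolus, and their supply is matched to cell growth. Their mRNAs are short and abundant, and most begin with a run of pyrimidines, the terminal oligopyrimidine (TOP) motif. Through this motif the mTOR pathway and the RNA-binding protein LARP1 control how much of the mRNA is translated. Measurements of mRNA therefore cover only a part of the control of these genes.

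A 5-base form of this motif, CTTTC or CTTTT, was looked for within 10 bases on either side of the RefSeq gene start (GRCm38.p6). A table of promoter sequences had an entry for 59 of the 82 genes. The motif was on the gene's strand in 17 of these 59 (28.81%), in 572 of the 9602 genes of the table that passed the count minimum (5.96%), and in 1760 of 27025 genes of the table (6.51%). On the opposite strand it was in 3 of the 59 (5.08%) and in 4.91% and 6.05% of the 2 larger sets. Matches could overlap each other. Each window below holds 15 bases before the start and 15 from it, with the motif in capitals. The first 4 are genes with the motif, of which Rps6 encodes the subunit phosphorylated by S6 kinase and Rplp2 a protein of the stalk that recruits elongation factors. Rps27rt is the retrotransposed copy of Rps27. Rps4x and Rpl26 have no match in this window and are shown because their levels set them apart below.
Rps6 (chr4:86857353-86857382, minus strand): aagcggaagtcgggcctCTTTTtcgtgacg
Rplp2 (chr7:141447636-141447665, plus strand): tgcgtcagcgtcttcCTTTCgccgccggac
Rps27 (chr3:90213634-90213663, minus strand): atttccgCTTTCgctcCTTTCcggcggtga
Rps27rt (chr9:114982725-114982754, minus strand): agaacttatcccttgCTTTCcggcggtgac
Rps4x (chrX:102189377-102189406, minus strand): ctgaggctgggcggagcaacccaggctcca
Rpl26 (chr11:68901551-68901580, plus strand): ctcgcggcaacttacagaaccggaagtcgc
Rps27 and Rps27rt shared a run of 14 bases, CTTTCcggcggtga, which began at the start of the copy and 1 base after the start of Rps27. The run reached the end of the Rps27 window, so it may extend further. A match is a description of these letters and not a measured start.

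Libraries held 14050486 to 23562411 reads on genes. Defining markers of proximal tubule, thick ascending limb, distal convoluted tubule, collecting duct, and podocytes were present in all libraries, proximal tubule markers at a summed 6134 to 11000 CPM (the count scaled by library total). The muscle markers summed to at most 0.425 CPM and the adrenal markers to at most 4.08 CPM, and Cyp11b1, an adrenal enzyme, was at 0 in every library. Fat markers summed to 33.7 CPM in NP female 3, 31.2 CPM in LP female 5, 16.5 CPM in LP male 4, 13.7 CPM in NP male 3, and 10.98 CPM in NP male 2, and to at most 3.48 CPM in the other 13. Red cell markers summed to 8.92 to 166 CPM, with Hbb-bs at 0 in every library. LP female 1, LP female 2, and NP female 3 stood apart: interferon-stimulated genes summed to 144 to 204 CPM in these 3 and to 698 to 3356 CPM in the other 15, and glucocorticoid-responsive genes to 237 to 450.4 CPM against 486 to 1271 CPM. The main results that rest on females are given with and without these 3 libraries.

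The 82 genes together took between 1.13% and 2.57% of the counts of a library. The share was 1.33% ± 0.0844 (SD, n = 5) in LP males, 1.37% ± 0.280 (n = 5) in NP males, 1.73% ± 0.336 (n = 5) in LP females, and 2.10% ± 0.654 (n = 3) in NP females. By library, it was 1.22%, 1.37%, 1.35%, 1.26%, and 1.43% in LP males 1 to 5. It was 1.53%, 1.26%, 1.13%, 1.14%, and 1.78% in NP males 1 to 5. It was 2.17%, 1.87%, 1.38%, 1.81%, and 1.39% in LP females 1 to 5, and 2.39%, 1.36%, and 2.57% in NP females 1 to 3. The ranges of LP and NP mice overlapped in both sexes, and those of males and females overlapped as well. NP female 3, NP female 1, and LP female 1 had the highest shares, and 2 of these 3 belong to the libraries that stood apart. In bulk kidney RNA, fewer cells with a high level and less RNA per cell cannot be told apart.

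**Figure D1:**
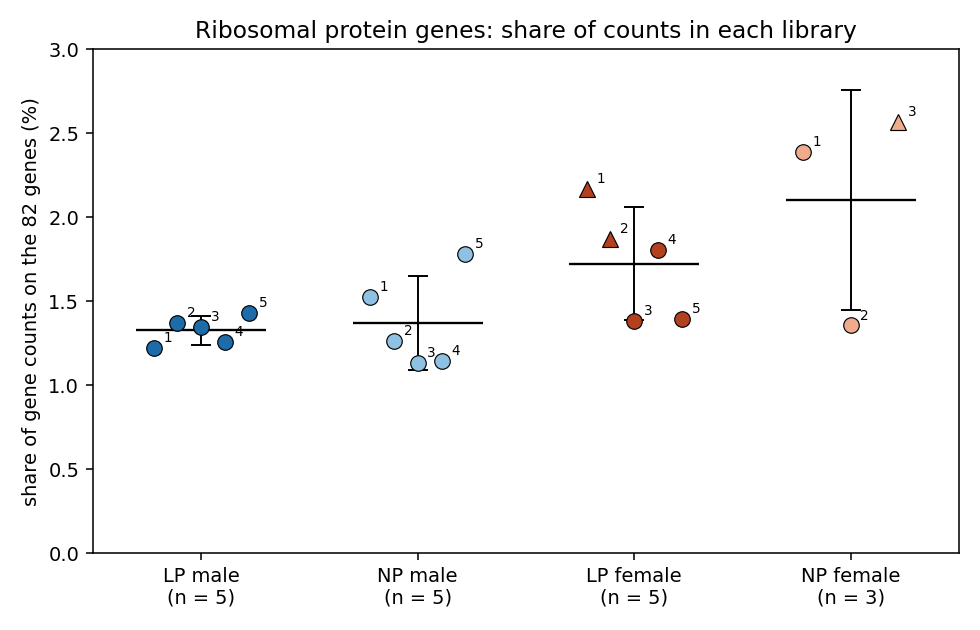
Share of gene counts (%, y axis) on the 82 cytosolic ribosomal protein genes in each of the 18 libraries, by group (x axis). Points are libraries numbered by replicate, triangles mark the 3 libraries that stood apart, and lines with bars give the mean ± SD. NP females spread from 1.36% to 2.57%, more widely than any other group.

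Most of the genes rose and fell together from library to library. All 82 were above their own median over the 18 libraries in NP female 3, as were 80 in NP male 5, 79 in NP female 1, and 79 in LP female 1. At the other end, 3 of 82 were above their median in each of LP male 4, NP male 3, and NP male 4, and 7 in NP female 2. NP female 3 was the highest library for 66 of the 82 genes, and NP male 4 was the lowest for 27. High and low libraries thus occurred in NP males and in both female groups. On a log2 scale, the mean deviation of the 82 genes from their own means ran from -0.35 in NP male 4 to 0.83 in NP female 3. Large-subunit genes deviated by 0.83 in NP female 3 and small-subunit genes also by 0.83, and in NP male 4 by -0.32 and -0.39.

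**Figure D2:**
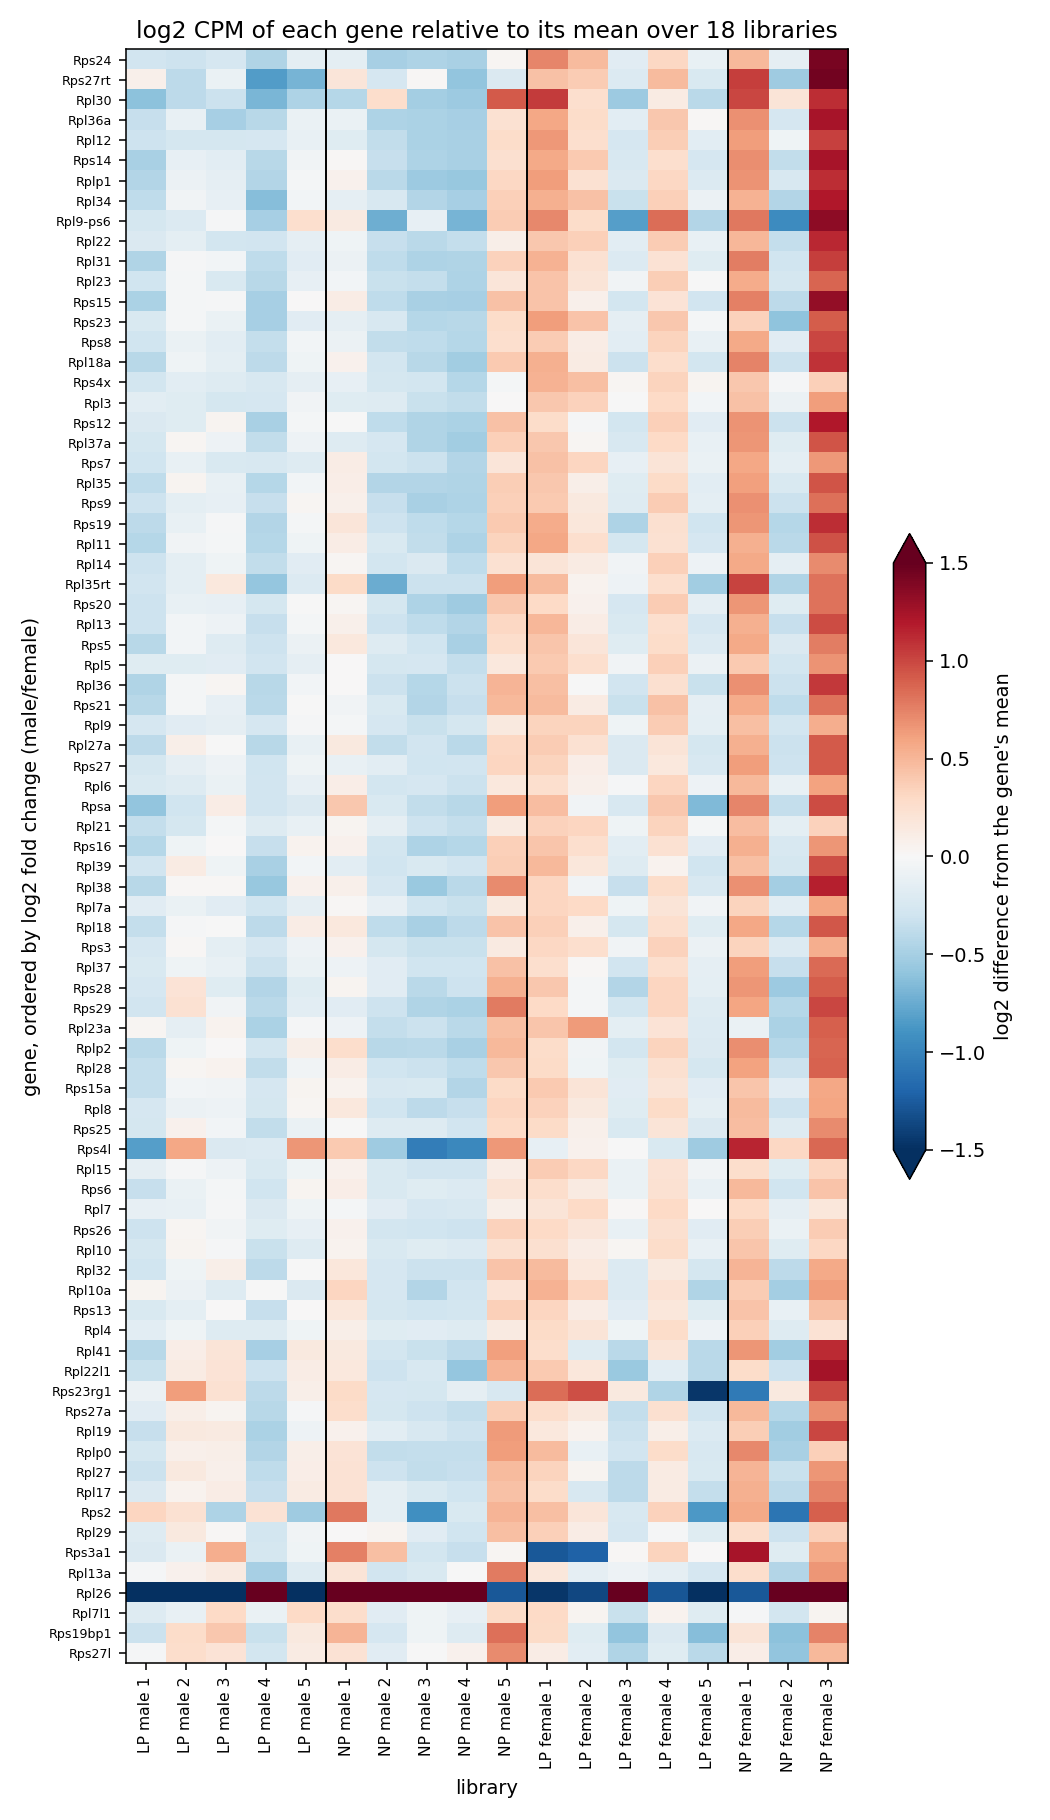
log2 CPM of 80 of the 82 genes (rows, ordered by the log2 fold change of males versus females) relative to the gene's mean over 18 libraries, for each library (columns, by group). Colors show the log2 difference, cut at 1.5 in either direction. Columns such as NP female 3 and NP male 5 are high, and NP male 4 is low, over nearly the whole set, whereas Rpl26 splits the libraries in another way.

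The share of reads that mapped to several places, which the deposited counts leave out, moved with these levels at its upper end. It was 12.6% in NP female 3, 8.91% in LP female 1, and 7.92% in LP female 2, and between 5.92% and 7.78% in the other 15 libraries. Counts on the mitochondrial genome took 16.5% of NP female 3, 11.3% of LP female 1, and 10.4% of LP female 2. NP female 1 and NP male 5, where 79 and 80 of the 82 genes were above their median, had 7.37% and 7.06% of reads mapping to several places and 6.74% and 5.69% on the mitochondrial genome. The part of these measures, and of the fat markers, in the ribosomal protein levels was not tested.

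Levels between genes were compared as CPM per kilobase of the annotated canonical transcript, averaged over the 18 libraries. Rpl41, which encodes the smallest ribosomal protein, was highest at 682 CPM per kb, followed by the stalk protein gene Rplp1 at 640.2, Rpl10 at 538, and Rps14 at 500.0 CPM per kb. The lowest were Rps23rg1 at 1.19, Rps4l at 3.80, Rpl9-ps6 at 5.10, Rpl13a at 5.75, and Rps27rt at 9.87 CPM per kb. Of these 5, all but Rpl13a are copies of another ribosomal protein gene. Exons of Rpl13a overlap Gm45713 on the same strand, so reads over both are in neither count in any column, and its level may be understated. The median of the 82 genes was 169 CPM per kb. Some canonical transcripts run far beyond the usual mRNA, such as 6111 bases for Rpl37 and 5182 for Rps15a, so the level per kb of such genes is a lower figure than a short transcript would give.

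The deposited counts hold only reads assigned to 1 gene, and reads over exons of genes on both strands are left out of the strandless column. For 13 of the 82 genes, that column kept under 90% of the reads found in the 2 stranded columns summed. It kept 3.37% for Rpl23a, 20.8% for Rplp0, which encodes the base of the stalk, 23.1% for Rps23, 52.7% for Rpl30, and 57.5% for Rpl7. Each of the 13 overlaps a gene on the opposite strand, for example Tlcd1 for Rpl23a and Snhg9 for Rps2. Absolute levels of these genes may therefore be understated by an amount not measured, as the reads left out can come from either gene. Reads of the non-directional libraries cannot be told apart by strand.

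Of the 92 symbols, 10 did not reach the minimum. Rpl10l had 0 counts in all 18 libraries together, which allows up to 0.00954 CPM over the pooled libraries, for counting error only. Rps18-ps6 also had 0 in the strandless column, but it overlaps Rps18-ps4 on the opposite strand, and its 2 stranded columns summed to 18.9 to 56.9 CPM per library. Rpl39l had 1 count and Rpl27rt 6 in all. Rpl24, Rps10, Rps18, and Rpl36al had summed counts of 43, 83, 274, and 124, and each shares exons with another annotated gene. On the same strand these were Gm28037 for Rpl24, Gm49804 for Rps10, and Gm49383 for Rpl36al. For Rps18 it was Vps52, on the opposite strand. Rpl3l, a paralog of Rpl3 known from striated muscle, had 389 counts, and Rpl10-ps3 had 380.0. For Rps18 the 2 stranded columns summed to between 1323 and 3948 reads per library, or 94.2 to 273 CPM, so its low count in the strandless column does not measure its mRNA.

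The first question was whether maternal diet changed these genes in adult males. None of the 82 genes was called in LP versus NP males with edgeR's quasi-likelihood test (adjusted p of 1.0 for each), against 5 of 13181 genes tested (0.0379%). No member had an unadjusted p under 0.05 with edgeR, where 3.81% of all genes did, and 1 did with DESeq2, which also called 0 members. The median log2 fold change was -0.06, beside -0.0036 for all genes tested, and 67 of the 82 were below 0. Values ran from -0.94 ± 0.91 (SE) for Rpl26 to 0.24 ± 0.38 for Rps4l. Besides Rpl26, the smallest p-values among lower genes belonged to Rpl30 (log2 fold change -0.55), Rpsa (-0.30), Rpl13a (-0.23), and Rps27rt (-0.20). Among higher genes, besides Rps4l, they belonged to Rps23rg1 (0.24), Rpl3 (0.04), Rps4x (0.03), and Rpl37a (0.04). For 0 of the 82 genes did the male diet groups fail to overlap, where 0.655% of the 12665 genes did so. By exact permutation (two-sided) the smallest p over the 82 genes was 0.151, where 5 against 5 mice can reach 0.00794. The direction of the median rested on NP male 5: without it the median was 0.07.

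In females, none of the 82 genes was called either (smallest adjusted p 0.886, edgeR), against 0 of 13510 genes tested (0.0%). The median log2 fold change was -0.35, beside -0.01 for all genes, and 76 of the 82 genes were below 0. With 3 NP females, 1 of the 82 genes had an unadjusted p under 0.05 with edgeR, where 4.17% of all genes did, and 2 did with DESeq2, which called 0 of the 82. The gene with the smallest edgeR p was Rps4l, a copy of the X-linked Rps4x on chromosome 6. It stood at 4.23, 4.84, 4.59, 3.95, and 3.20 CPM in LP females 1 to 5, and at 10.2, 5.72, and 8.39 CPM in NP females 1 to 3. All LP females were below all NP females, which was so for 1 of the 82 genes, where 2.83% of the 12665 genes had female diet groups that did not overlap. Rps4l differed by -0.95 ± 0.24 (log2 fold change ± SE; adjusted p 0.886, edgeR), and its exact permutation p was 0.0179, the smallest that 5 against 3 allows. The difference was -1.02 without the 3 libraries that stood apart. In males, Rps4l stood at 2.62, 6.93, 3.98, 4.00, and 7.34 CPM in LP mice and at 6.08, 3.19, 2.25, 2.37, and 7.23 CPM in NP mice, with overlapping ranges.

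The next 4 lower genes in females by p-value were Rps3a1 (log2 fold change -0.92), Rps15 (-0.65), Rps12 (-0.58), and Rpl41 (-0.63), none of them called. Only 6 genes were above 0, and the 5 with the smallest p-values were Rpl7l1 (0.08), Rpl7 (0.06), Rps4x (0.04), Rpl15 (0.02), and Rps23rg1 (0.01). The level in females rested on single NP mice: the median of the 82 genes was -0.08 without NP female 3 and -0.62 without NP female 2, and -0.22 without the 3 libraries that stood apart. Without NP female 2, 53 of the 82 genes had an unadjusted p under 0.05, and with limma-voom and library quality weights 51 did, and in both fits 0 were called. The shares over all genes rose as well, to 19.4% and 18% from 4.17% in the edgeR fit to all females.

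An interaction term (female minus male) tested whether the diet difference itself was unlike in the sexes. No member was called (smallest adjusted p 0.979, edgeR), against 2 of 12665 genes (0.0158%). The median was -0.28, beside -0.02 for all genes, and -0.17 without the 3 libraries that stood apart. One member, Rps4l at -1.19 ± 0.50 (SE), had an unadjusted p under 0.05 with edgeR, where 4.03% of all genes did, and 1 member did with DESeq2. The next lower genes by p-value were Rpl37a (-0.48), Rps12 (-0.56), Rpl22l1 (-0.63), and Rps3a1 (-0.76), and of 6 higher genes the 5 with the smallest p-values were Rpl7l1 (0.07), Rpl4 (0.06), Rpl7 (0.04), Rpl21 (0.02), and Rps4x (0.01). Without NP female 3 the median was -0.03, and without NP female 2 it was -0.57. Without NP female 2, 36 members and 15.3% of all genes had an unadjusted p under 0.05. With limma-voom and library quality weights, 56 members and 23% of all genes did, and in both fits 0 members were called.

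Males and females were compared over all 18 libraries with diet as a covariate. Of the 82 genes, 39 (47.6%) were lower in males and 0 higher at an adjusted p under 0.05 (edgeR), where 20.3% of all 12665 genes tested were lower and 18% higher. The median log2 fold change was -0.36, beside -0.06 for all genes, and 78 of the 82 were below 0. The called genes comprised 24 of 44 of the large subunit, 14 of 29 of the small subunit, and 1 of 9 copies or look-alikes, Rps27rt at -0.76, which was not called without the 3 libraries (-0.49, adjusted p 0.115, edgeR). Called values lay between -0.77 and -0.24. Unadjusted, 52 of the 82 had a p under 0.05, where 46.7% of all genes did. At least a 1.5-fold change was met by 6 of the 39. The matching share of all genes is not given here, so this count cannot be set against it.

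The sex difference was smaller without the 3 libraries that stood apart. In the other 15, 8 of the 82 genes (9.76%) were called lower in males and 1 higher (1.22%). The median log2 fold change was -0.19, beside -0.03 for all genes, and 70 of the 82 were below 0. Of all 12949 genes tested in these 15 libraries, 19.6% were called lower and 18.4% higher, so the members' share of genes called lower was below that of all genes. Unadjusted, 18 of the 82 had a p under 0.05, where 46.9% of all genes did. The 8 were Rps4x, Rpl3, Rps24, Rpl36a, Rpl12, Rpl23, Rpl6, and Rpl14, and each was also called over all 18 libraries. The sexes were not alike in these 15 libraries in the genes that set the 3 apart. Of 8 interferon-stimulated genes, 8 were lower in males there (median -0.72), where 0 were over all 18 libraries. Of 5 glucocorticoid-responsive genes, 4 were lower (median -1.02), where 2 were over all 18. The part of this in the sex difference of the members was not tested. Within LP mice alone 7 of the 82 genes were called, and within NP mice alone 1, Rps24, all lower in males. Of all genes, 8.01% were lower and 10.9% higher within LP mice, and 6.89% and 8.19% within NP mice, so the members' counts were near or below these shares. Without NP female 3, no member was called within NP mice (0 with edgeR, 3 at an unadjusted p under 0.05), where 7.09% of all genes were lower, 6.94% higher, and 30.7% at an unadjusted p under 0.05. Leaving out NP female 3 alone gave 20 calls, all lower in males, where 2380 of 12838 genes were lower. Leaving out NP female 2 gave 56, all lower, where 2547 of 12683 genes were lower. Marker sums of 2 cell types were higher in every female than in every male, while those of the remaining cell types overlapped between the sexes. Distal convoluted tubule markers summed to 603 to 1074 CPM in females and 287 to 582 CPM in males, and podocyte markers to 212 to 431 CPM and 118 to 201 CPM. The part of these 2 cell types in the sex difference was not tested.

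**Figure D3:**
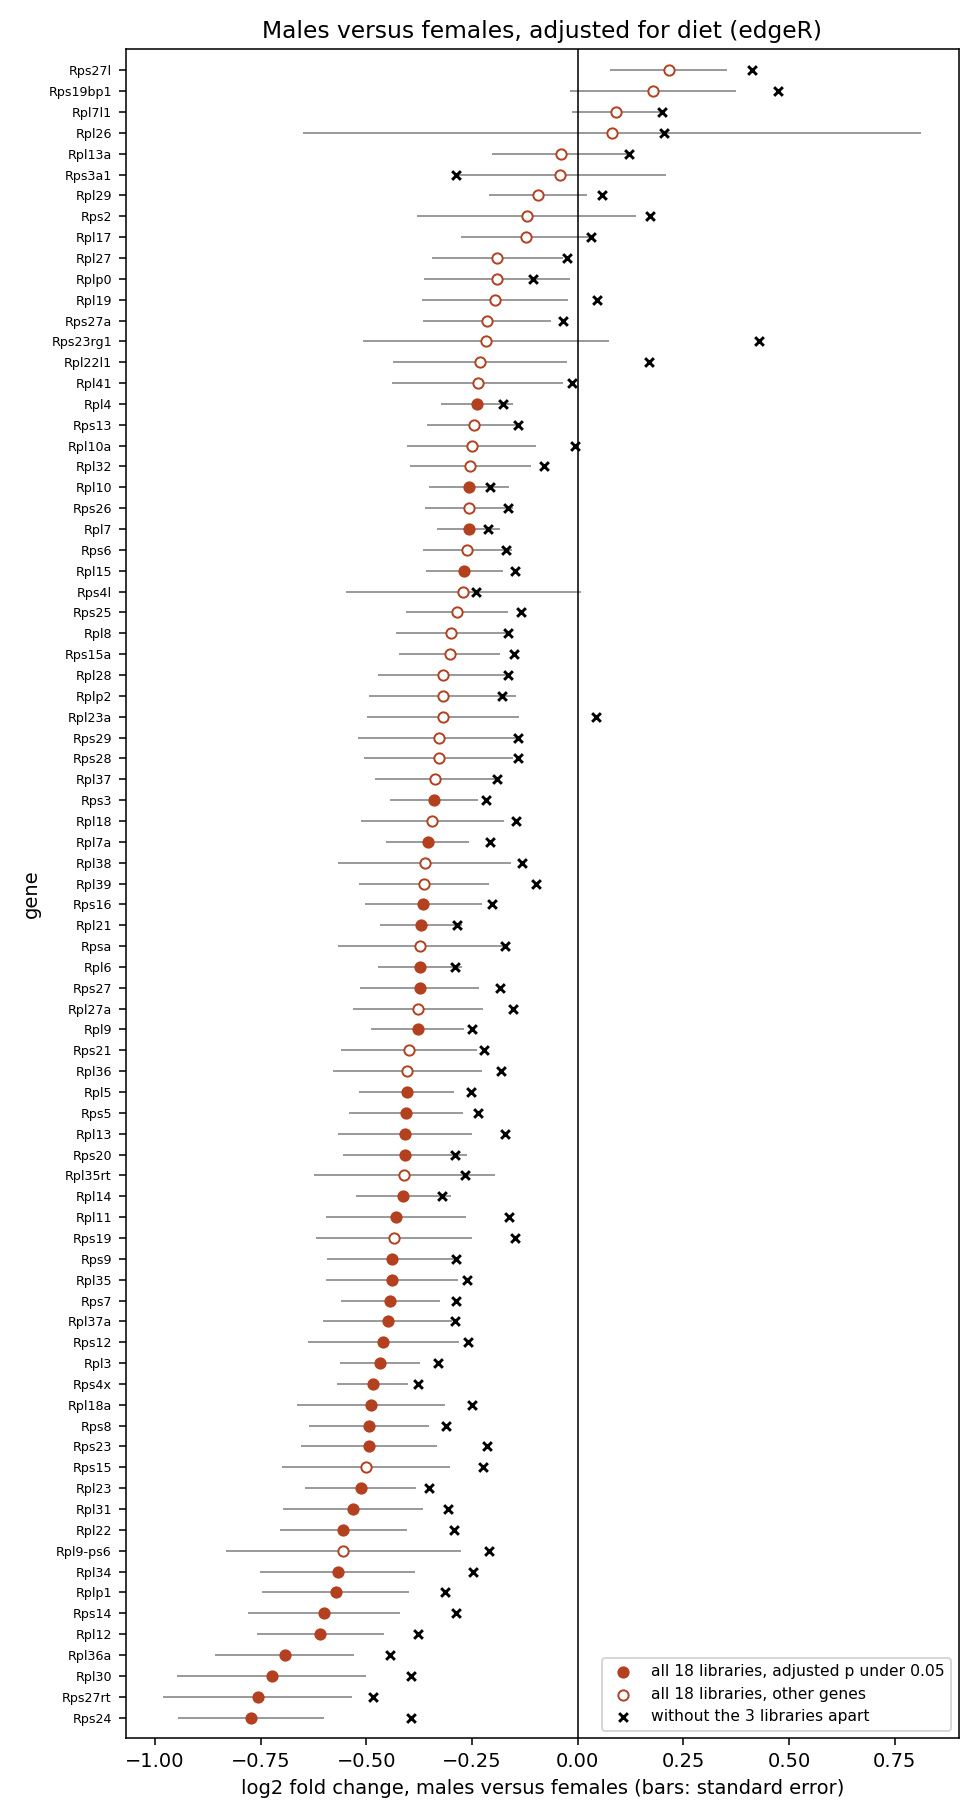
log2 fold change of males versus females (x axis) for 80 of the 82 genes (y axis), with bars for the standard error of the fit over all 18 libraries. Filled points are genes with an adjusted p under 0.05, open points the others, and crosses the values without the 3 libraries that stood apart. Filled points all lie below 0, and most crosses lie nearer to 0.

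Rps4x, the X-linked gene of a small-subunit protein, was the 1 member with no overlap between the sexes. It stood at 263, 284, 278, 269, and 289 CPM in LP males 1 to 5, and at 291, 264, 263, 236, and 310.4 CPM in NP males 1 to 5. In LP females 1 to 5 it stood at 457, 434, 324, 399, and 327 CPM, and in NP females 1 to 3 at 420.2, 314, and 407 CPM. Every male was below every female, which held for 2.51% of all genes tested. Males differed from females by -0.49 ± 0.08 (log2 fold change ± SE; adjusted p 0.000189, edgeR), and the exact permutation p was 2.29e-05, the smallest that 10 against 8 can give. Without the 3 libraries it was -0.38 with an adjusted p of 0.00245 (edgeR). Diet made little difference to the means, at 276 ± 10.8 CPM in LP males and 273 ± 28.5 in NP males (SD, n = 5 each), and at 388 ± 60.9 in LP females (n = 5) and 380.2 ± 58.2 in NP females (n = 3).

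Of the other X-linked members, Rpl36a was lower in males with a log2 fold change of -0.69 ± 0.16 (adjusted p 0.00276, edgeR), and of -0.45 without the 3 libraries (adjusted p 0.0303, edgeR). It stood at 54.0 to 71.1 CPM in LP males, 54.1 to 89.1 in NP males, 68.2 to 114 in LP females, and 64.1 to 179 in NP females, with overlapping ranges. Rpl10, whose protein joins the large subunit late in its assembly, was lower by less, at -0.26 ± 0.10 (adjusted p 0.0388, edgeR). Rpl39, a small protein of the exit tunnel, had -0.36 ± 0.15 and was not called (adjusted p 0.0701, edgeR). Rpl10 and Rpl39 were not called without the 3 libraries.

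Rps24, a small-subunit gene needed for processing of ribosomal RNA, had the lowest fold change of all members, at -0.77 ± 0.17 (adjusted p 0.00176, edgeR). It stood at 119, 117, 122, 106, and 131 CPM in LP males 1 to 5, and at 131, 103, 105, 104, and 148 CPM in NP males 1 to 5. LP females 1 to 5 stood at 240.3, 201, 129, 179.9, and 134 CPM, and NP females 1 to 3 at 203, 132, and 388 CPM. The ranges of males and females overlapped, and NP female 3 stood far above the rest. Without the 3 libraries the fold change was -0.40 with an adjusted p of 0.0157 (edgeR), and Rps24 was the 1 member called within LP and within NP mice. Its pseudogene Rps24-ps3 carried between 12.4% and 26.8% of the counts on both, and reads shared by gene and pseudogene are not in either count.

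Rpl3, near the peptidyl transferase center of the large subunit, was lower in males by 0.47 on the log2 scale (SE 0.10, adjusted p 0.000817, edgeR), and Rpl12 by 0.61 (SE 0.15, adjusted p 0.0037). Rpl5 and Rpl11, which with 5S RNA form the particle that can bind MDM2, had -0.41 (adjusted p 0.00783) and -0.43 (adjusted p 0.047). Of the stalk genes, Rplp1 was lower in males (-0.57, adjusted p 0.0142), while Rplp0 (-0.19, adjusted p 0.405) and Rplp2 (-0.32, adjusted p 0.160) were not called. Neither were Rpsa, also known as the laminin receptor (-0.37, adjusted p 0.144), Rps6 (-0.26, adjusted p 0.0586), or Rps27a, which is made as a fusion with ubiquitin (-0.21, adjusted p 0.281). These adjusted p-values are from edgeR over all genes tested. In the 15 libraries Rpl3 (-0.33, adjusted p 0.0105) and Rpl12 (-0.38, adjusted p 0.045) were called, but Rpl5 (-0.25, adjusted p 0.0881), Rpl11 (-0.16, adjusted p 0.448), and Rplp1 (-0.32, adjusted p 0.156) were not (edgeR).

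Paralogs did not always have the same sign as their partners. Rps27l, a paralog of Rps27 that p53 induces, had the highest fold change of all members, 0.22 ± 0.14 (SE), and was not called (adjusted p 0.238, edgeR), whereas Rps27 was lower in males at -0.37 ± 0.14 (adjusted p 0.041). Without the 3 libraries, Rps27l was higher in males at 0.41 (adjusted p 0.0324, edgeR) and Rps27 had -0.18 (adjusted p 0.307). Rps27l stood at 94.3 to 137 CPM in LP males, 102 to 187 in NP males, 83.8 to 123 in LP females, and 76.1 to 159.8 in NP females, with overlapping ranges. Rpl7l1 had 0.09 against -0.26 for Rpl7, and Rpl22l1 -0.23 against -0.56 for Rpl22, and of these 4, Rpl7 (adjusted p 0.0105) and Rpl22 (adjusted p 0.00683) were called, and neither was without the 3 libraries (adjusted p 0.0593 and 0.0795, edgeR). Rps19bp1, whose protein binds Rps19 and SIRT1, had 0.18 ± 0.20 and was not called. The difference between a paralog and its partner was not tested.

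Rpl26, a large-subunit gene whose protein can also bind the mRNA of p53, varied in a way of its own. It lies on chromosome 11 at 68792344 to 68797822 (GRCm39, plus strand). Its level was 6.90, 11.2, 8.89, 186, and 8.49 CPM in LP males 1 to 5, and 125, 103, 95.5, 94.3, and 13.2 CPM in NP males 1 to 5. It was 11.5, 12.3, 112, 13.01, and 9.29 CPM in LP females 1 to 5, and 13.1, 109, and 228.5 CPM in NP females 1 to 3. The libraries fell into 10 low ones at 6.90 to 13.2 CPM and 8 high ones at 94.3 to 228.5 CPM, with a 7.16-fold gap between them, and every group held both kinds. The counts hold only uniquely mapped reads, so whether the mRNA itself differs this much was not tested. Among the other 81 members, the largest gap between neighboring libraries was 1.82-fold, in Rps3a1. Low levels were in 4 of 5 LP males, 1 of 5 NP males, 4 of 5 LP females, and 1 of 3 NP females. The LP-NP difference was not called in males (-0.94 ± 0.91) or in females (-1.86 ± 1.00), and its exact permutation p-values were 0.151 and 0.25. Of 15084 genes with over 2 CPM in some library, 1 other gene, B3galt4, separated the same 10 from the same 8 libraries, in the opposite direction. With so many genes searched, 1 match can arise by chance, and a link was not tested.

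Rps3a1, which encodes the small-subunit protein Rps3a, varied 5.73-fold over the libraries, and 2 annotated pseudogenes had counts of their own that varied as well. Rps3a1 stood at 192, 209, 326, 187, and 214 CPM in LP males 1 to 5, and at 379.5, 306, 185, 176, and 229 CPM in NP males 1 to 5. LP females 1 to 5 stood at 92.6, 96.8, 226, 284, and 225 CPM, and NP females 1 to 3 at 530.1, 197, and 332 CPM. The 2 lowest libraries, LP female 1 and LP female 2, had the highest Rps3a2 (47.3 and 46.6 CPM) and among the highest Rps3a3 (149 and 124 CPM). In LP male 3, NP male 1, NP male 2, and NP female 1, Rps3a2 was at 1.15 to 3.06 CPM and Rps3a3 at 0.14 to 1.201 CPM, while Rps3a1 was at 306 to 530.1 CPM. In the other 12 libraries Rps3a2 was at 16.5 to 32.9 CPM and Rps3a3 at 46.7 to 136 CPM. The sum of the 3 genes varied 2.22-fold, from 241 to 534 CPM, which is within the span of the other members. Counting of unique reads can split a gene from its copies in different ways, so the count of Rps3a1 alone is uncertain.

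**Figure D4:**
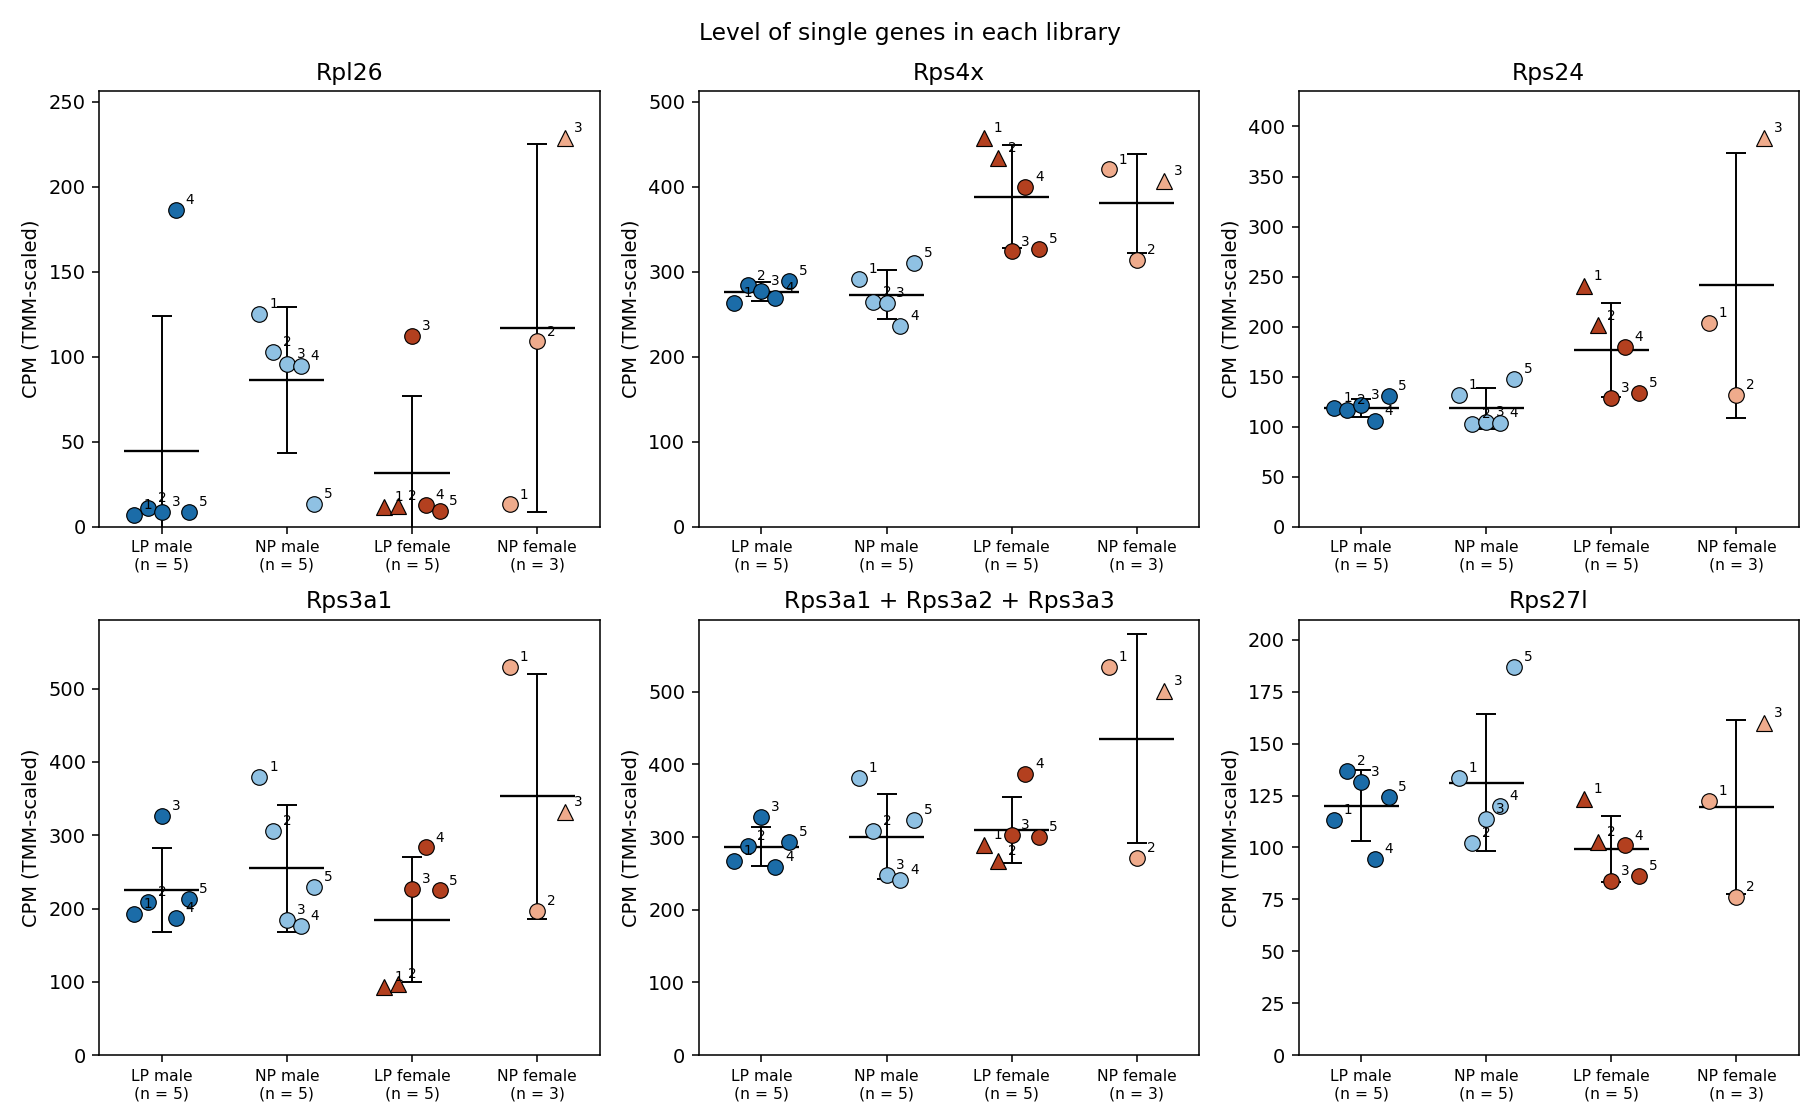
TMM-scaled CPM (y axis) of Rpl26, Rps4x, Rps24, Rps3a1, the sum of Rps3a1 and its pseudogenes Rps3a2 and Rps3a3, and Rps27l in each library, by group (x axis). Points are libraries numbered by replicate, triangles mark the 3 libraries that stood apart, and lines with bars give the mean ± SD, with bars cut off at 0. Rpl26 splits every group into high and low libraries, and Rps4x is lower in all males than in all females.

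Among the members whose pseudogenes of the same symbol had at least 1000 counts, the pseudogenes took under 10% of the counts on both, apart from Rps3a1 (25.3%), Rps24 (21.1%), and Rpl34 (40.7%, from Rpl34-ps1). For Rpl34 the share was between 36.4% and 47.0% in every library, a narrower span than the 0.548% to 67.9% of Rps3a1.

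Genes with related work were set beside the 82 by lists of known function. Fau and Rack1, ribosomal proteins outside the naming rule, had log2 fold changes in males versus females with a median of -0.35, and 1 of 2 was lower, Rack1 (-0.31, adjusted p 0.0343, edgeR). Without the 3 libraries that stood apart the median was -0.16, and neither was called (Rack1 at -0.14, adjusted p 0.344, edgeR). Of all genes, 20.3% were lower in males and 18% higher, and 19.6% and 18.4% without the 3 libraries. Of 17 translation factors and other mRNAs with a TOP motif, 4 were lower in males (23.5%) and 2 higher (11.8%), with a median of -0.11. The 4 lower ones were Eif3f (-0.45), Eef1b2 (-0.36), Eef1a1 (-0.25), which encodes the elongation factor that delivers tRNA, and Npm1 (-0.22). In the 15 libraries without these 3, 3 were lower and 1 higher, with a median of -0.04, and of the 4 named genes Eif3f (-0.31) and Npm1 (-0.24) were called. Of 37 ribosome biogenesis genes 8 were higher (21.6%) and 1 lower (2.7%), with a median of 0.10. Nhp2, of the H/ACA particles that modify RNA, was higher by 1.58 and its partner Dkc1 lower at -0.41. In the same 15, 6 were higher (16.2%) and 1 lower (2.7%), with a median of 0.05, and Nhp2 (1.59) and Dkc1 (-0.35) were called. Of 10 genes of RNA polymerase I, 1 was higher and 2 lower, and 1 was higher and 1 lower without the 3 libraries. In LP versus NP mice of either sex, and in the interaction, 0 genes of these lists were called (edgeR), and at an unadjusted p under 0.05 at most 1 gene per list passed in any of the 3 comparisons.

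The genes that control TOP mRNAs through mTOR were higher in males more often than lower: of 22, 8 were higher and 4 lower, where 18% and 20.3% of all genes were. Mtor, the kinase itself, stood at 360.5 ± 67.4 CPM in males (SD, n = 10) and 159 ± 31.4 CPM in females (n = 8), a log2 difference of 1.19 (adjusted p 1.39e-06, edgeR). Castor1, an arginine sensor upstream of mTOR, was higher by 1.47, and Eif4ebp2, a repressor of cap-dependent translation, by 0.41. Sesn1, a stress-induced inhibitor of the pathway, was lower at -0.75. In the 15 libraries, 7 of the 22 were higher and 4 lower, where 18.4% and 19.6% of all genes were. Mtor (1.02), Castor1 (1.40), Eif4ebp2 (0.40), and Sesn1 (-0.89) were called there. In the diet comparisons 0 of the 22 were called (edgeR), and 1 in each sex had an unadjusted p under 0.05. Of 8 p53 targets, 4 were higher in males and 0 lower, with Ccng1 at 0.61, Aen at 0.72, Zmat3 at 0.32, and Mdm2 at 0.23. In the 15 libraries, 2 of the 8 were higher and 1 lower. Of the 4, Ccng1 was called (0.53), while Aen (0.32), Zmat3 (0.19), and Mdm2 (0.15) were not. The others called were Bax, which promotes cell death, at 0.41, and the cell cycle inhibitor Cdkn1a at -1.18, both named after their values were seen.

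Some other lists deviated in the same direction as the ribosomal protein genes in part of the libraries. The mean log2 deviation in NP female 3 was 0.83 for the 82 genes, 1.05 for 24 ribosomal protein pseudogenes, 0.62 for 58 other mRNAs under 1000 bases, 0.63 for 86 nuclear genes of oxidative phosphorylation, and 0.40 for 76 mitochondrial ribosomal protein genes. In NP male 5 these values were 0.33, 0.20, 0.40, 0.41, and 0.38 in the same order, and in NP female 2 they were -0.28, -0.31, -0.32, -0.35, and -0.37. Ribosome biogenesis genes had -0.21, 0.16, and -0.06 in these 3 libraries, and translation factors with a TOP motif 0.09, 0.11, and -0.20. In these 3 libraries the short mRNAs and the nuclear genes of mitochondrial proteins thus deviated in the same direction as the 82 genes. Directions differed in some other libraries. LP male 2 had -0.05 for the 82 genes, 0.18 for the pseudogenes, and 0.10 for oxidative phosphorylation. LP female 2 had 0.12 for the 82 genes and -0.03 for mitochondrial ribosomal proteins. The share of counts on the mitochondrial genome was 16.5% in NP female 3, 5.69% in NP male 5, and 8.70% in NP female 2. Its part in the levels of these lists was not tested.

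In males versus females these lists had different medians. The median was -0.45 for the pseudogenes (6 of 24 lower, 0 higher), -0.16 for the short mRNAs (12 of 58 lower, 5 higher), -0.13 for oxidative phosphorylation (7 of 86 lower, 5 higher), and 0.05 for mitochondrial ribosomal proteins (2 of 76 lower, 12 higher). Without the 3 libraries that stood apart, the medians of the short mRNAs (12 lower, 6 higher) and of oxidative phosphorylation (2 lower, 5 higher) turned to 0.03 and 0.04. The median of the pseudogenes was then -0.20 (2 lower, 0 higher), and that of mitochondrial ribosomal proteins 0.17 (2 lower, 18 higher). Of all genes, 20.3% were lower in males and 18% higher over all libraries, and 19.6% and 18.4% without the 3. In LP versus NP females the medians were -0.44, -0.31, -0.28, and -0.17, beside -0.35 for the 82 genes, with 0 called in each (edgeR) and 3, 3, 4, and 2 genes at an unadjusted p under 0.05. They were -0.29, -0.21, -0.12, and -0.07 without the 3 libraries, beside -0.22 for the 82 genes. In LP versus NP males they were -0.01, -0.06, -0.06, and -0.08, with 0 called (edgeR) and 1, 3, 0, and 0 genes at an unadjusted p under 0.05. These 4 comparisons share libraries, and differences between lists were not tested.

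**Figure D5:**
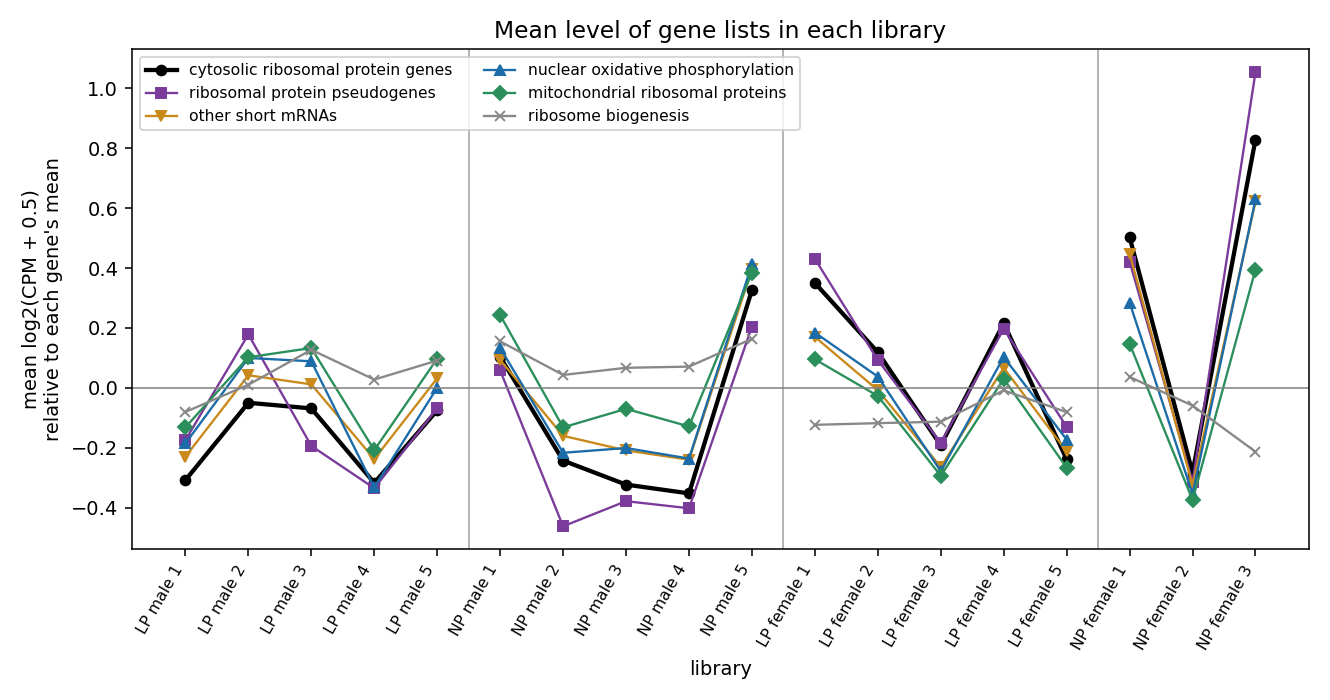
Mean log2(CPM + 0.5) of 6 gene lists relative to each gene's mean over the 18 libraries (y axis), for each library (x axis, by group; lines join libraries of a group only to aid the eye). The cytosolic ribosomal protein genes, their pseudogenes, other short mRNAs, and nuclear oxidative phosphorylation genes are all high in NP female 3 and NP male 5 and low in NP female 2, whereas ribosome biogenesis genes stay within 0.22 of 0.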

How the data were processed

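Bulk RNA-seq was performed on kidney of 18 mice, 1 poly(A), non-directional library each. The authors trimmed reads, aligned them to GRCm39 with STAR, and deposited raw counts of uniquely mapped reads per gene; the tool version is not given in the sources used here. The strandless column was used, and its 4 rows of unassigned reads were left out. LP and NP mice were compared within sex, and the interaction and sex (diet as covariate) over 18 libraries, in edgeR 4.0.16 (glmQLFTest; R 4.3.3) with TMM and Benjamini-Hochberg adjustment over genes at 10 or more counts in all libraries of the fit; called means an adjusted p under 0.05. CPM are TMM-scaled for single genes, and scaled by library total for marker sums. Log2 CPM of single genes were tested by exact two-sided permutation. Types, transcripts, and overlaps came from GENCODE vM39 and start sequences from RefSeq. Members and lists were chosen with earlier results of these data known. Named genes are the 5 higher and 5 lower with the smallest p per comparison, paralog pairs, X-linked, stalk and extreme-level genes, called list genes (up to 4 per list), and symbols under the minimum; the 8 members called without the 3 libraries, Rpl5, and Rpl11 were added after their values were seen. Code was tested on simulated data. Alternatives were no filter, filterByExpr, DESeq2 1.42.0 size factors or Wald test, TMM without members, library totals, limma-voom 3.58.1, stranded columns summed, 1 model over 4 groups, a replicate block, a 1.5-fold minimum, 1 diet only, no libraries that stood apart, and each library left out. Values of 2 single members are not reported here, though counts and medians include them.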

Additional observations from a re-analysis of the deposited data

Results flagged for a closer look

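In groups of 5, the highest or lowest library was compared with its neighbor by Dixon's ratio in 27 sets of values, and 4 stood out, where chance flags about 1 in 20. For Rpl26 these were LP male 4, the highest LP male at 186 CPM, NP male 5, the lowest NP male at 13.2 CPM, and LP female 3, the highest LP female at 112 CPM. For Rps3a1 it was LP male 3, the highest LP male at 326 CPM. In the stranded columns, which the main comparisons do not use, 2 symbols under the count minimum had at least 10 reads in every library. Rps18 had at least 1323 reads. Rps18-ps6, which overlaps the pseudogene Rps18-ps4 on the opposite strand, had at least 315.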

How the results depend on the processing

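No member was called in LP versus NP males, LP versus NP females, or the interaction under any alternative run. In males versus females, 39 members were called, all lower, beside 2565 lower of all 12665 genes. Library totals only, which shift the median of all genes to -0.18 and the split of all calls to 1488 higher and 3892 lower, gave 59. With no filter on low counts 18 members were lower (2367 of all 42285 genes), and with the replicate block 24 (2148 of 12665). With limma-voom 14 were called, 13 lower and 1 higher (2513 and 2473 of 12665 genes). Without the 3 libraries that stood apart 9 were called, 8 of them lower (2544 of 12949 genes). In LP mice 7 were lower (1059 of 13228), and in NP mice 1 (893 of 12952). At least a 1.5-fold change was met by 6, and the matching count of all genes is not given here. Equal replicate numbers did not pair the mice, with correlations of their deviations of -0.30 to 0.33 in males and -0.61 to -0.39 in females, and the block changed no other count of called members. Over all genes it gave 2 calls in place of 5 in males and 0 in place of 2 in the interaction. Leaving out each library gave 20 members called in males versus females (without NP female 3) to 56 (without NP female 2). Of all genes, 2380 of 12838 and 2547 of 12683 were lower in these fits, in the same order. In NP mice without NP female 3, an alternative chosen after seeing the data, the count was 0. The remaining alternatives gave 27 to 41, where 2478 to 2955 of all genes were lower. The median log2 fold change in the interaction was -0.66 with limma-voom, and the other medians moved by less than the spread between replicates; in males it was 0.12 with limma-voom. Single named genes kept their side of the threshold and moved by under 1 SE in 896 refits, moved further in 41, lost a call in 10, and gained one in 2, and no called gene turned its direction. The causes were not tested, apart from the fewer samples in the refits without libraries. With 3 NP females, whose shares of counts stood at 1.36% to 2.57%, the spread between libraries limits what the comparison of females can show.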
